A study of Mus musculus with 19 samples.

Results

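The nuclear factor I genes (Nfia, Nfib, Nfic and Nfix) and the COUP-TF genes of the nuclear receptor superfamily (Nr2f1, Nr2f2 and Nr2f6) were followed across mouse stem cells that lack 1 or both of the miR-290 and miR-302 microRNA clusters. The 7 genes were chosen by name, from a set proposed because Nr2f2 and Nfia were high in the cells that lack both clusters, so their level in those cells is a description, for which no p-value is given. All 7 had a row among the 12778 genes of the expression matrix. RNA was profiled in 19 libraries of 6 groups with QuantSeq, a method that reads each polyadenylated RNA near its 3′ end.

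Wild-type (WT), miR-290 knockout (KO), miR-302 KO and double KO (miR-290 KO with miR-302 KO) induced pluripotent stem cells (iPSC) had been made from mouse embryonic fibroblasts with Oct4, Sox2 and Klf4 and were collected more than 18 passages later. Embryonic stem cells (ESC) with the miR-290 KO or the miR-302 KO were derived as such, and all cells grew with LIF and FBS. WT iPSC had 3 libraries, each KO iPSC group had 2 colonies with 2 libraries per colony, and each ESC group had 2 libraries. A colony was an independent derivation, and its 2 libraries were averaged to 1 sample, which gave 13 samples. The series description excepts the WT libraries from the statement on independent derivation, so p-values against WT may measure only the spread between libraries of 1 derivation. The deleted microRNAs were not analysed here, and the genotype labels were taken as given.

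Nuclear factor I proteins bind DNA as dimers and act as activators or repressors late in the development of many tissues. Nfia and Nfib are best known for the switch of neural progenitors to glia, Nfib also for lung maturation, Nfic for tooth root formation, and Nfix for fetal muscle and neural stem cells. COUP-TF proteins are orphan nuclear receptors that mostly repress transcription. Nr2f1 (COUP-TFI) patterns the cortex, Nr2f2 (COUP-TFII) specifies veins and atria, and Nr2f6 (EAR2) restrains cytokine genes in T cells. Both clusters belong to the main microRNAs of pluripotent mouse cells. A microRNA represses mRNAs by pairing its seed, bases 2 to 8 from its 5′ end, with sites mostly in the 3′ UTR. NR2F2 has been reported as a miR-302 target in human embryonic stem cells.

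The microRNAs are shown because most members of both clusters begin alike. Mature sequences from RefSeq (GRCm38.p6) were matched by name for 10 microRNAs of the 3p arm, 6 of the miR-290 cluster on chromosome 7 and 4 of the miR-302 cluster on chromosome 3. The clusters also hold miR-292a-3p and miR-302a-3p. Of the 10, 7 share AAGUGC at bases 2 to 7, and these are printed with the seed in capitals.
miR-290a-3p: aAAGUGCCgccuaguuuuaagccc
miR-291a-3p: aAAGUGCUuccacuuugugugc
miR-291b-3p: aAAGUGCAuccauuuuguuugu
miR-294-3p: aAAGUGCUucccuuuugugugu
miR-295-3p: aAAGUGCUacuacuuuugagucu
miR-302b-3p: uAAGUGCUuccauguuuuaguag
miR-302d-3p: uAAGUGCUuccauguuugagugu
The seed AAGUGCU is shared by 3 microRNAs of the miR-290 cluster (miR-291a-3p, miR-294-3p and miR-295-3p) and 2 of the miR-302 cluster (miR-302b-3p and miR-302d-3p). The seeds AAGUGCC of miR-290a-3p and AAGUGCA of miR-291b-3p differ from it in the last base and occur in the miR-290 cluster alone among these 10. The other 3 microRNAs have the seeds GUGCCGC (miR-293-3p), AGUGCUU (miR-302c-3p) and AUUGCAC (miR-367-3p).

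The 3′ UTRs of the 7 genes (longest annotated per gene, GENCODE vM21, GRCm38) were searched on the transcript strand for GCACTTA, which is the complement of AAGUGC followed by the A that lies opposite base 1. Such a match is a description of letters and was not tested as a site. Nfia had 3 matches, Nfib 2, Nfic 1 and Nr2f2 2, and Nfix, Nr2f1 and Nr2f6 had 0. The 8 matches are printed with the paired letters and the A in capitals, 14 bases before and 4 after, and the coordinates are those of the capitals.
Nr2f2, chr7:70354031-70354038, minus strand: agagatggtggaaaTGCACTTAcaag
Nr2f2, chr7:70353635-70353642, minus strand: aaaataacactgttGGCACTTAtagg
Nfia, chr4:98112046-98112053, plus strand: aagttttgaaatgcTGCACTTAcatt
Nfia, chr4:98114224-98114231, plus strand: tttgccttccctatAGCACTTAgctg
Nfia, chr4:98116481-98116488, plus strand: tgaagctattccatAGCACTTAactg
Nfib, chr4:82296547-82296554, minus strand: tagaccagcattgcAGCACTTAcagt
Nfib, chr4:82295685-82295692, minus strand: aatattgaaaacacAGCACTTAggtt
Nfic, chr10:81396524-81396531, minus strand: cagcttttcctaacTGCACTTAcgtg
In Nr2f2 the letter before GCACTTA is T in one match and G in the other, which extends the pairing to base 8 of miR-291b-3p and of miR-290a-3p, both of the miR-290 cluster. AGCACTT, the complement of the seed that both clusters share, does not occur in the 2713 bases of the Nr2f2 3′ UTR. The last 2 matches of Nfia and both of Nfib carry that shared complement.

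Length alone makes matches common. GCACTTA was found in 8.24% of the 3′ UTRs of 11844 genes of the matrix, but in 28.6% of the 224 3′ UTRs within 1.25 times the length of the Nfia UTR (7639 bases) and in 14.5% of the 1730 near the length of the Nr2f2 UTR. The mean number of matches in UTRs of like length was 0.375 for Nfia, 0.330 for Nfib (6621 bases), 0.257 for Nfic (4868 bases) and 0.161 for Nr2f2. For Nfix (3951 bases), which has no match, 19.8% of UTRs of like length had one. The UTRs of Nr2f1 (760 bases) and Nr2f6 (356 bases) are short, and 4.10% and 2.06% of UTRs of like length held a match. Matches to bases 2 to 8 of these 7 microRNAs without the A were 1 each in Nfia, Nfib and Nfix and 2 in Nfic. Complements of the miR-302c-3p seed numbered 1 in Nfia and 3 in Nfib, beside means of 0.826 and 0.701 in UTRs of like length. Those of the miR-367-3p seed numbered 1 in Nfia, 1 in Nfib and 2 in Nfix, beside means of 0.335, 0.279 and 0.202. The other members had none of either seed. No member was set apart from other genes by a test of these counts.

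**Figure D1:**
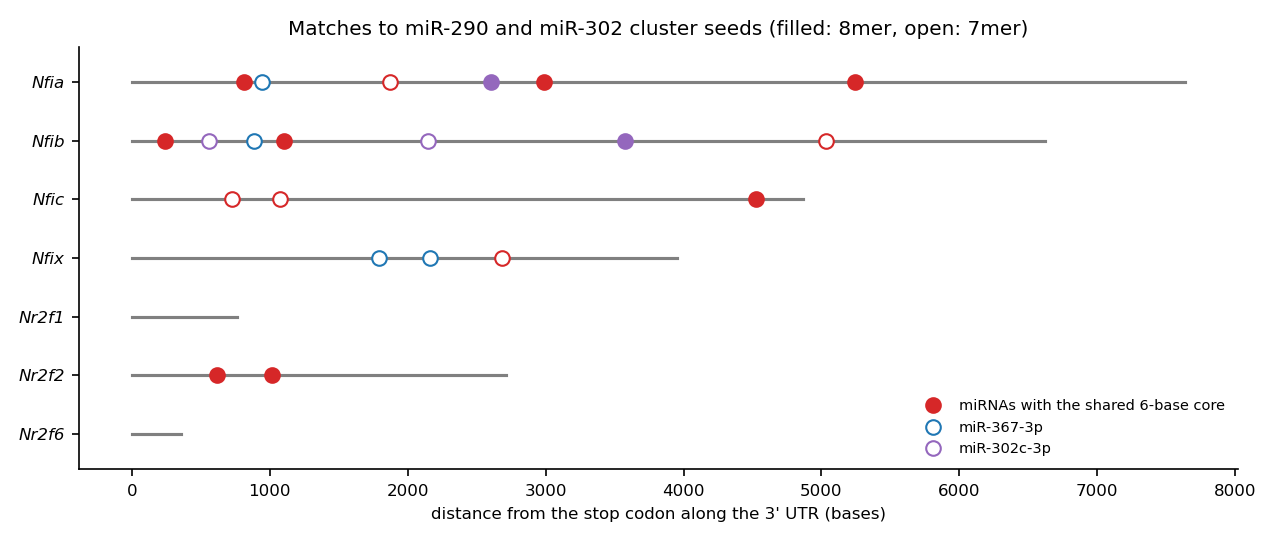
Complements of the seeds along the annotated 3′ UTR of each gene (grey line), with distance from the stop codon in bases on the x axis; filled points pair with bases 2 to 8 plus the A opposite base 1 (8mer), open points with bases 2 to 8 only, and colours give the microRNAs. Red filled points are the 8 matches printed in the text, 3 of them in Nfia, 2 each in Nfib and Nr2f2, and 1 in Nfic, while Nfix, Nr2f1 and Nr2f6 have none.

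Levels are given as CPM, the reads recovered for a gene per 1000000 recovered reads of its library, and differences as log2 differences of the deposited values, which include a small prior of 0.909 to 3.52 reads per library. All 133 values of the 7 genes gave whole reads. Totals ran from 6373701 to 24746069 reads, with a median of 17316279. One library stood apart, library 2 from colony 1 of the miR-302 KO iPSC. Its mean correlation across genes with its group was 0.852, against 0.904 or more in the other 18 libraries. The tested differences that involve the miR-302 KO iPSC are given without it where that changed a call or a direction or moved a value by over 1.5 times in Nfia or Nr2f2. Summed over 10 markers of pluripotent cells, the samples of WT, miR-290 KO and miR-302 KO iPSC lay between 2833 and 4250 CPM, ESC between 2947 and 3786 CPM, and the double KO at 68.7 and 98.3 CPM. The double KO cells, which the series description covers by the term iPSC-like, thus had little RNA of the markers that define the labelled cell type. In such bulk libraries, fewer cells of a type and less RNA per cell cannot be told apart. Median-of-ratios scaling moved the median log2 difference of all genes, by 0.22 at most (from 0.24 to 0.03 in double KO against miR-302 KO iPSC), by 0.15 in double KO against WT and by 0.14 in miR-290 KO against WT.

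Nr2f2 had 74.9, 69.4, 154 and 162 CPM in the 4 double KO libraries and 1.47, 1.61 and 1.46 CPM in the 3 WT iPSC libraries. The miR-290 KO iPSC libraries had 5.24, 8.70, 6.75 and 8.94 CPM, and those of the miR-302 KO iPSC 0.808, 0, 1.75 and 1.49 CPM. In ESC, the miR-290 KO had 3.53 and 5.52 CPM and the miR-302 KO 3.20 and 0.896 CPM. The double KO libraries were all far above every other library, and the 6 miR-290 KO libraries of both cell types were all above the 3 WT and the 6 miR-302 KO libraries. The 0 came from the library that stood apart, where a count of 0 allows a level of up to 0.274 CPM (3 reads). Means over samples were 115 ± 60.8 CPM in the double KO (SD, n = 2) and 1.51 ± 0.0831 CPM in WT (SD, n = 3), a ratio of 76.2. The log2 difference was 6.05 (SE 0.68), and it was 3.88 (SE 0.74) against the miR-290 KO iPSC and 7.08 (SE 0.74) against the miR-302 KO iPSC, or 6.40 without the library that stood apart. Ordered by mean, the samples (colony means, or WT or ESC libraries) of the double KO, the miR-290 KO iPSC (7.41 CPM) and the miR-290 KO ESC (4.53 CPM) did not overlap those of their neighbours, although the lowest miR-290 KO iPSC library was below the higher miR-290 KO ESC library. The miR-302 KO ESC (2.05 CPM), WT (1.51 CPM) and the miR-302 KO iPSC (1.01 CPM) overlapped.

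The 2 double KO colonies differed in Nr2f2. Colony 1 had 72.2 CPM and colony 2 had 158 CPM, a ratio of 2.19, while the 2 libraries within a colony differed by a factor of 1.08 and 1.05. Nr2f1 went the other way, with 23.1 CPM in colony 1 and 13.1 CPM in colony 2, a ratio of 1.76. The other 5 genes differed between these colonies by a factor of 1.24 or less, from 1.00 for Nfix to 1.24 for Nfib. With 1 derivation on each side these differences have no replicate check.

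Nfia had 215, 205, 192 and 249.9 CPM in the double KO libraries and 1.96, 1.88 and 1.87 CPM in WT. The miR-290 KO iPSC libraries had 10.1, 10.4, 11.7 and 15.1 CPM, and the miR-302 KO iPSC libraries 0.289, 6.49, 1.65 and 4.77 CPM. The ESC libraries had 5.41 and 6.85 CPM with the miR-290 KO and 4.99 and 1.05 CPM with the miR-302 KO. The WT libraries were within 0.09 CPM of each other, the miR-290 KO iPSC libraries all lay above WT, and the miR-302 KO libraries fell on both sides of WT. Within colony 1 of the miR-302 KO iPSC the 2 libraries differed by a factor of 22.5 (5 and 71 reads), the higher being the library that stood apart. The double KO mean was 216 ± 7.72 CPM (SD, n = 2), 113 times the WT mean, with a log2 difference of 6.74 (SE 0.53). Of the 12778 genes, 46 had a larger log2 rise in the double KO against WT, compared with 72 for Nr2f2 and 78 for Nfix. These ranks describe the choice, since the set was proposed for the level of Nfia and Nr2f2 in the double KO.

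Nfix had 199.6, 222, 184 and 238 CPM in the double KO libraries and 3.05, 1.93 and 5.41 CPM in WT. The miR-290 KO iPSC libraries had 12.5, 10.3, 12.1 and 8.32 CPM and the miR-302 KO iPSC libraries 4.33, 1.01, 6.96 and 11.1 CPM. The ESC libraries had 5.35 and 3.97 CPM with the miR-290 KO and 14.3 and 2.74 CPM with the miR-302 KO. The double KO stood alone, at a mean of 211 ± 0.378 CPM (SD, n = 2), 60.9 times the WT mean of 3.46 ± 1.78 CPM (SD, n = 3). The samples of the other 5 groups overlapped from each to the next in the order of their means. The log2 difference between double KO and WT was 6.01 (SE 0.68). The Nfix 3′ UTR held no GCACTTA, but 1 complement of the miR-291b-3p seed without the A and 2 of the miR-367-3p seed. The part of such matches in the level of Nfix was not tested.

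Nfib was not low in WT. It had 44.97, 28.1 and 34.1 CPM there and 474, 446, 583 and 557 CPM in the double KO. The miR-290 KO iPSC libraries had 42.5, 19.2, 39.4 and 26.5 CPM and the miR-302 KO iPSC libraries 45.4, 33.7, 48.3 and 39.97 CPM. The ESC libraries had 41.2 and 22.3 CPM with the miR-290 KO and 40.2 and 69.1 CPM with the miR-302 KO. The double KO mean of 515 ± 77.6 CPM (SD, n = 2) was 14.4 times that of WT (35.7 ± 8.57 CPM, SD, n = 3), with a log2 difference of 3.89 (SE 0.31). The samples of the 5 other groups overlapped from each to the next in the order of their means. The difference from the miR-290 KO iPSC, 4.09 (SE 0.34), was close in size to that from WT and from the miR-302 KO iPSC (3.65, SE 0.34).

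Nfic had 88.4, 80.1, 73.5 and 81.6 CPM in the double KO libraries and 28.5, 27.9 and 34.7 CPM in WT. The miR-290 KO iPSC libraries had 44.0, 39.3, 53.3 and 65.9 CPM and the miR-302 KO iPSC libraries 42.5, 59.5, 50.9 and 43.2 CPM. The ESC libraries had 26.5 and 31.1 CPM with the miR-290 KO and 36.5 and 47.1 CPM with the miR-302 KO. Every library of both KO iPSC groups lay between those of WT and those of the double KO. The double KO mean was 2.66 times that of WT, a log2 difference of 1.44 (SE 0.23).

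Nr2f1 was the lowest of the COUP-TF genes in the double KO, with Nr2f6 between it and Nr2f2. Nr2f1 had 20.6, 25.6, 11.4 and 14.8 CPM in the double KO libraries, 1.04, 0.589 and 1.11 CPM in WT, and 0.637, 1.27, 1.66 and 1.10 CPM in the miR-290 KO iPSC. The miR-302 KO iPSC libraries had 1, 4, 1 and 6 reads (0.0577, 0.366, 0.0516 and 0.298 CPM), all below the 3 WT libraries. The ESC libraries had 1.47 and 0.288 CPM with the miR-290 KO and 0.924 and 0.527 CPM with the miR-302 KO. The mean in the double KO was 19.9 times that of WT, with a log2 difference of 4.12 (SE 0.60). With log2(CPM + 1) of the recovered reads in place of the deposited values that difference was 3.27, since 1 CPM outweighs the prior in a gene at this level. Nr2f6 had 27.0, 25.2, 25.2 and 22.3 CPM in the double KO and 8.94, 12.3 and 13.4 CPM in WT, a ratio of means of 2.16 and a log2 difference of 1.15 (SE 0.32). Its miR-290 KO iPSC libraries had 15.0, 18.2, 9.70 and 10.98 CPM and its ESC libraries 13.1 and 14.5 CPM (miR-290 KO) and 10.8 and 9.38 CPM (miR-302 KO). In the miR-302 KO iPSC, Nr2f6 had 12.1, 26.9, 11.1 and 13.7 CPM. The value within the range of the double KO libraries came from the library that stood apart.

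**Figure D2:**
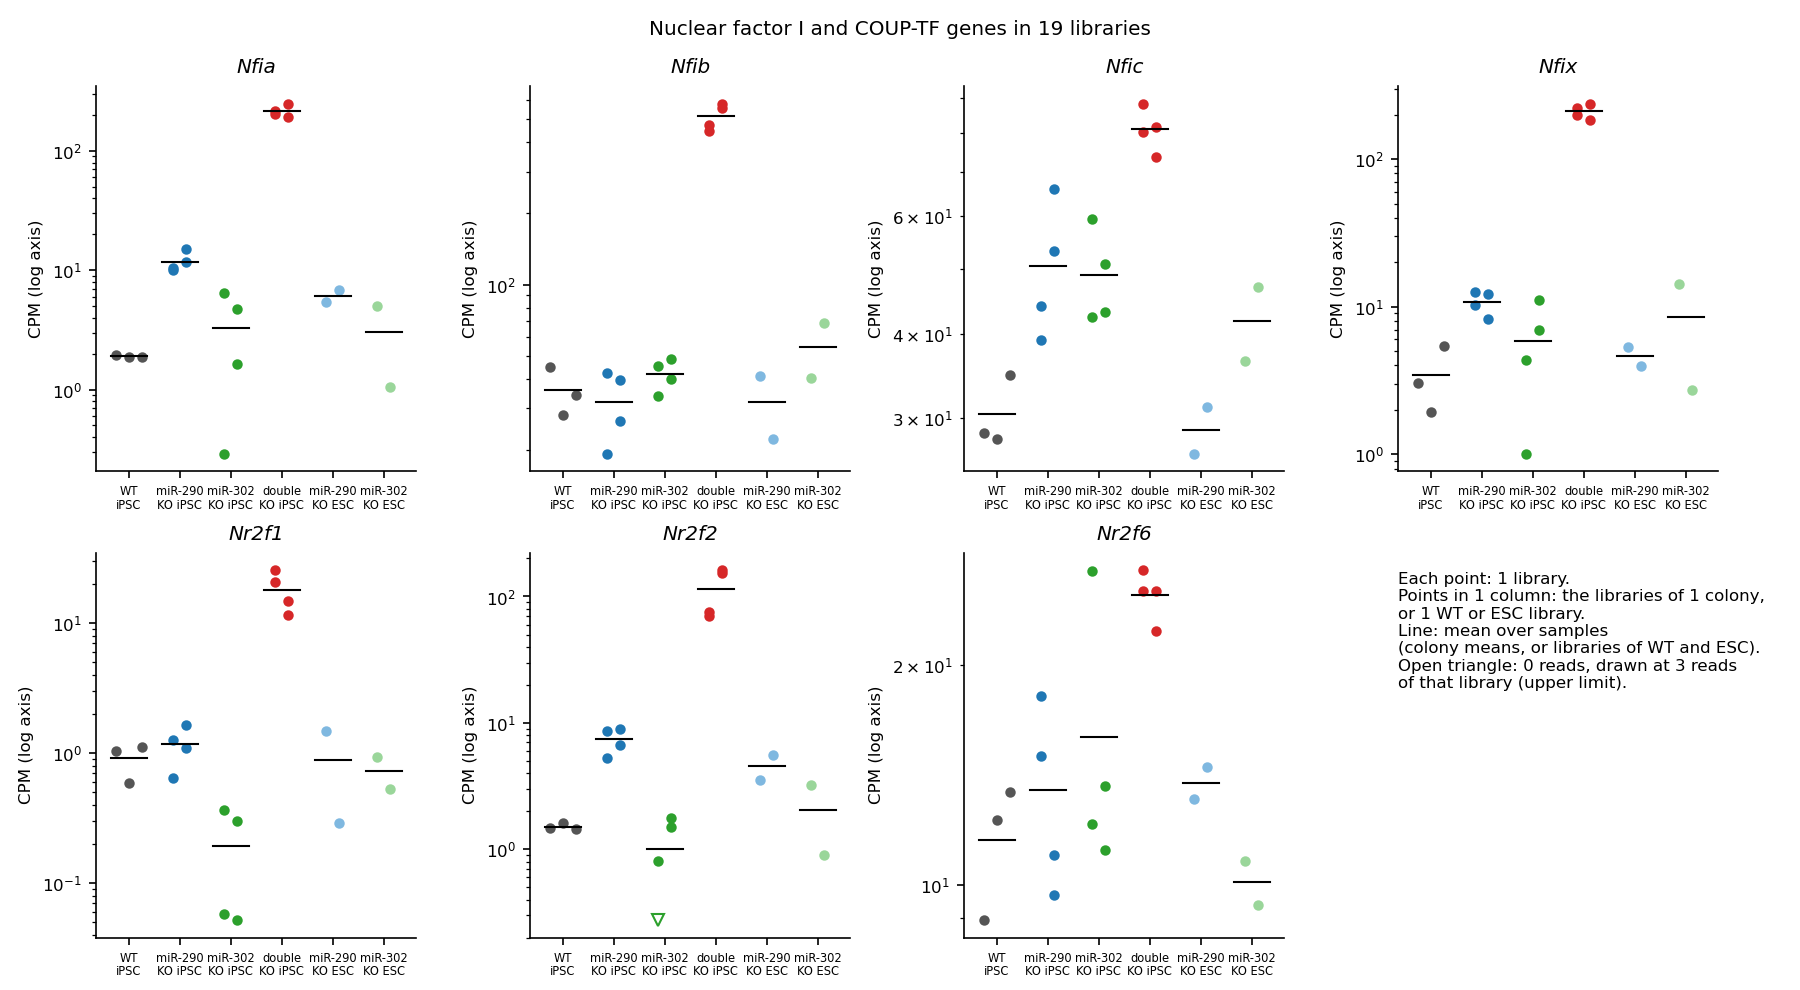
CPM of the 7 genes (y axis, log scale, 1 panel per gene) in 19 libraries by group (x axis); points in 1 column are libraries of 1 colony, or 1 library of WT or ESC, lines are means over samples, and the open triangle marks 0 reads drawn at 3 reads of that library. Double KO libraries are above every other library for all genes but Nr2f6, by a wide margin except for Nfic. For Nr2f6, 1 miR-302 KO iPSC library (26.9 CPM) lies among the double KO libraries. Nr2f2 and Nr2f1 order the double KO colonies in opposite ways.

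Against WT, all 7 genes lay among those called higher in the double KO by limma (Benjamini-Hochberg adjusted p under 0.05), a call that 27.4% of all genes had. The median log2 difference over the 7 was 4.12, beside 0.16 over all genes. Against the miR-290 KO iPSC 6 of the 7 were called higher, beside 15.6% of all genes, with a median of 3.88 beside 0.03. Against the miR-302 KO iPSC 6 were called higher, beside 28.5% of all genes, with a median of 5.57 beside 0.24. The gene without a call was Nr2f6 in both, at 0.95 (SE 0.35) and 0.76 (SE 0.35). Since the genes were chosen for their level in the double KO, these counts describe the choice and show nothing beyond it. The 3 comparisons share the double KO libraries. In the authors' deposited table of double KO against WT, which lists 8672 genes, all 7 were listed, with log2 fold changes from 0.85 (SE 0.22) for Nr2f6 to 6.55 (SE 0.22) for Nfia. The choice of the genes bears on this listing too. These SEs are smaller than those of the fit here, 0.32 for Nr2f6 and 0.53 for Nfia.

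**Figure D3:**
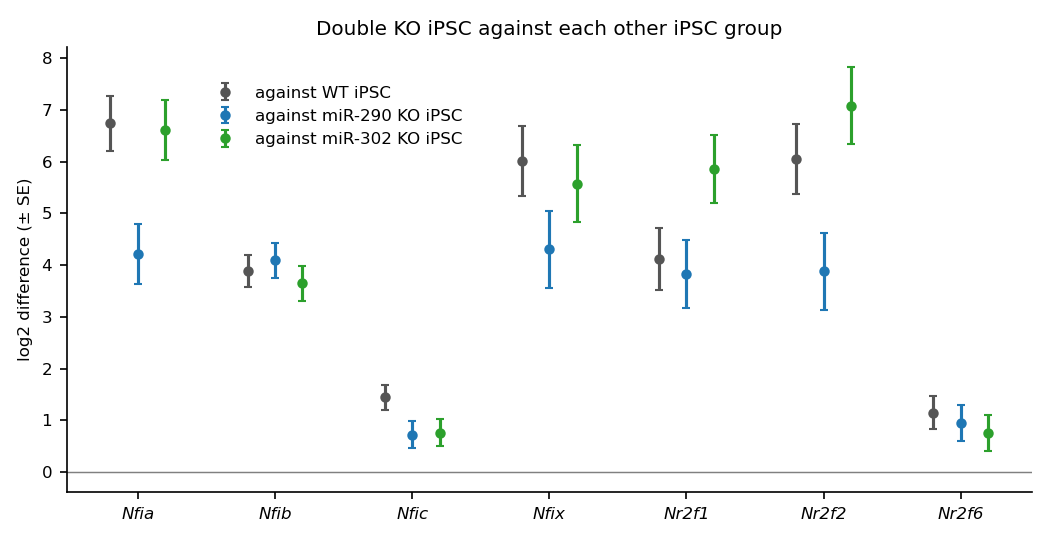
Log2 difference of each gene (y axis, ± SE of the fit over 13 samples) in the double KO iPSC against WT, miR-290 KO and miR-302 KO iPSC (grey, blue and green). Nfia, Nfix and Nr2f2 lie near 6 to 7 against WT and lower against the miR-290 KO, Nfib lies near 4 in all 3, and Nfic and Nr2f6 lie near 1.

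Loss of the miR-290 cluster alone was compared with WT to see which members changed while the miR-302 cluster was present. Nfia rose, with 11.8 ± 2.23 CPM (SD, n = 2) against 1.90 ± 0.0510 CPM (SD, n = 3), a log2 difference of 2.53 (SE 0.53, limma adjusted p = 0.0374). It was the only member of 7 called, beside 1.57% of all genes (155 higher and 46 lower, or 102 and 85 after median-of-ratios scaling). Nr2f2 had 7.41 ± 0.620 CPM (SD, n = 2) and a log2 difference of 2.16 (SE 0.68, limma adjusted p = 0.131), Nfix 1.71 (SE 0.68, adjusted p = 0.236) and Nfic 0.72 (SE 0.23, adjusted p = 0.146). For these 4 genes the 2 colonies did not overlap the 3 WT libraries, which was so for 38.8% of the 12238 genes with recovered reads. Nfib, Nr2f1 and Nr2f6 had log2 differences of -0.20, 0.29 and 0.20, within 1 SE of 0, and their ranges overlapped those of WT. The median over the 7 was 0.72, beside 0.14 over all genes. In the authors' deposited table of miR-290 KO against WT, which lists 1429 genes at an adjusted p of at most 0.05, Nfia, Nr2f2 and Nfix were listed, with log2 fold changes of 2.48 (SE 0.35), 2.14 (SE 0.41) and 1.54 (SE 0.39).

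The Nfia call depended on the samples in the fit. The log2 difference stayed between 2.13 and 2.72 in the 20 alternatives that kept Nfia, and it was called in 9 of them, with adjusted p from 0.00965 to 0.327. Leaving out any WT library ended the call (adjusted p from 0.0856 to 0.105), as did leaving out either miR-290 KO colony (0.0957 and 0.327). Leaving out either double KO colony (0.0502 and 0.0505) or either miR-290 KO ESC library (0.0667 and 0.0671), which leaves the difference as it was and changes the estimate of the spread, ended it too. It was also lost with colony 1 of the miR-302 KO iPSC taken from library 1 alone (adjusted p = 0.0855, difference 2.53). The WT libraries also entered the contrast on which the genes were chosen.

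In the miR-302 KO iPSC against WT, limma called 0 of the 7 genes, beside 0.0313% of all genes, and 2 of 7 had an unadjusted p under 0.05, beside 15.1% of all genes. These were Nr2f1, with 0.193 ± 0.0260 CPM (SD, n = 2) against 0.912 ± 0.281 CPM (SD, n = 3) and a log2 difference of -1.75 (SE 0.60, adjusted p = 0.269), and Nfic, with 0.68 (SE 0.23, adjusted p = 0.269). Nr2f1 rested on 12 reads over the 4 miR-302 KO libraries and 46 over the 3 of WT. Nr2f2 had -1.04 (SE 0.68, adjusted p = 0.461), which became -0.35 without the library that stood apart and 0.09 without its whole colony. Nfia had 0.13 (SE 0.53), and -0.85 with colony 1 from library 1 alone. The median over the 7 was 0.24, beside -0.11 over all genes. None of the 7 is listed in the authors' deposited table of miR-302 KO against WT, which lists 43 genes. This comparison and the one before share the WT libraries.

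Set against each other, the 2 KO iPSC groups differed in Nr2f2. It was higher in the miR-290 KO by 3.20 on the log2 scale (SE 0.74, limma adjusted p = 0.0459), the only call among the 7, beside 2.25% of all genes (237 higher and 50 lower, or 146 and 87 after median-of-ratios scaling). Nfia had 2.40 (SE 0.58, adjusted p = 0.0532), Nr2f1 2.04 (SE 0.66, adjusted p = 0.123) and Nfix 1.27 (SE 0.75, adjusted p = 0.393), all higher in the miR-290 KO. Nfib went the other way, at -0.44 (SE 0.34, adjusted p = 0.519). In these 5 genes the colonies of the groups did not overlap, which was so for 43.8% of genes. Nfic and Nr2f6 had 0.04 and -0.19 and overlapped. The median over the 7 was 1.27, beside 0.23 over all genes. Without the library that stood apart, Nr2f2 had 2.51 (adjusted p = 0.0497) and Nfia 3.38 (adjusted p = 0.0459), and both were called. Without colony 1 of the miR-302 KO Nr2f2 had 2.07 (adjusted p = 0.317), and without colony 2 it had 4.33 (adjusted p = 0.00895). Over 20 alternatives the Nr2f2 difference stayed between 2.07 and 4.33 and was called in 8, with adjusted p from 0.00537 to 0.317. Leaving out either miR-290 KO colony ended the call (adjusted p 0.163 and 0.191), and so did leaving out any WT library (from 0.0603 to 0.0649) or either miR-290 KO ESC library (0.0715 and 0.0719).

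The same 2 genotypes were compared in ESC, where limma called 0 of the 7 genes, beside 0.587% of all genes, and 2 of 7 had an unadjusted p under 0.05, beside 12.8% of all genes. These were Nfia, higher in the miR-290 KO by 1.32 (SE 0.58, adjusted p = 0.366), and Nfib, at -0.80 (SE 0.34, adjusted p = 0.345). Nr2f2 had 1.28 (SE 0.74, adjusted p = 0.518), from 3.53 and 5.52 CPM (miR-290 KO) and 0.896 and 3.20 CPM (miR-302 KO). The 2 miR-302 KO ESC libraries differed from each other, with library 1 above library 2 by 4.99 to 1.05 CPM in Nfia and by 14.3 to 2.74 CPM in Nfix. Leaving out library 1 gave a called Nfia difference of 2.37 (adjusted p = 0.0334). Whether the genotypes differed more in iPSC than in ESC was tested as an interaction, which limma called for 0 of 12778 genes, with 552 at an unadjusted p under 0.05. By limma the difference of differences was 1.92 for Nr2f2 (SE 1.05, adjusted p = 0.984) and 1.08 for Nfia (SE 0.82, adjusted p = 0.984), and Nr2f1 had the lowest unadjusted p of the 7 (2.06, SE 0.93, adjusted p = 0.984).

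**Figure D4:**
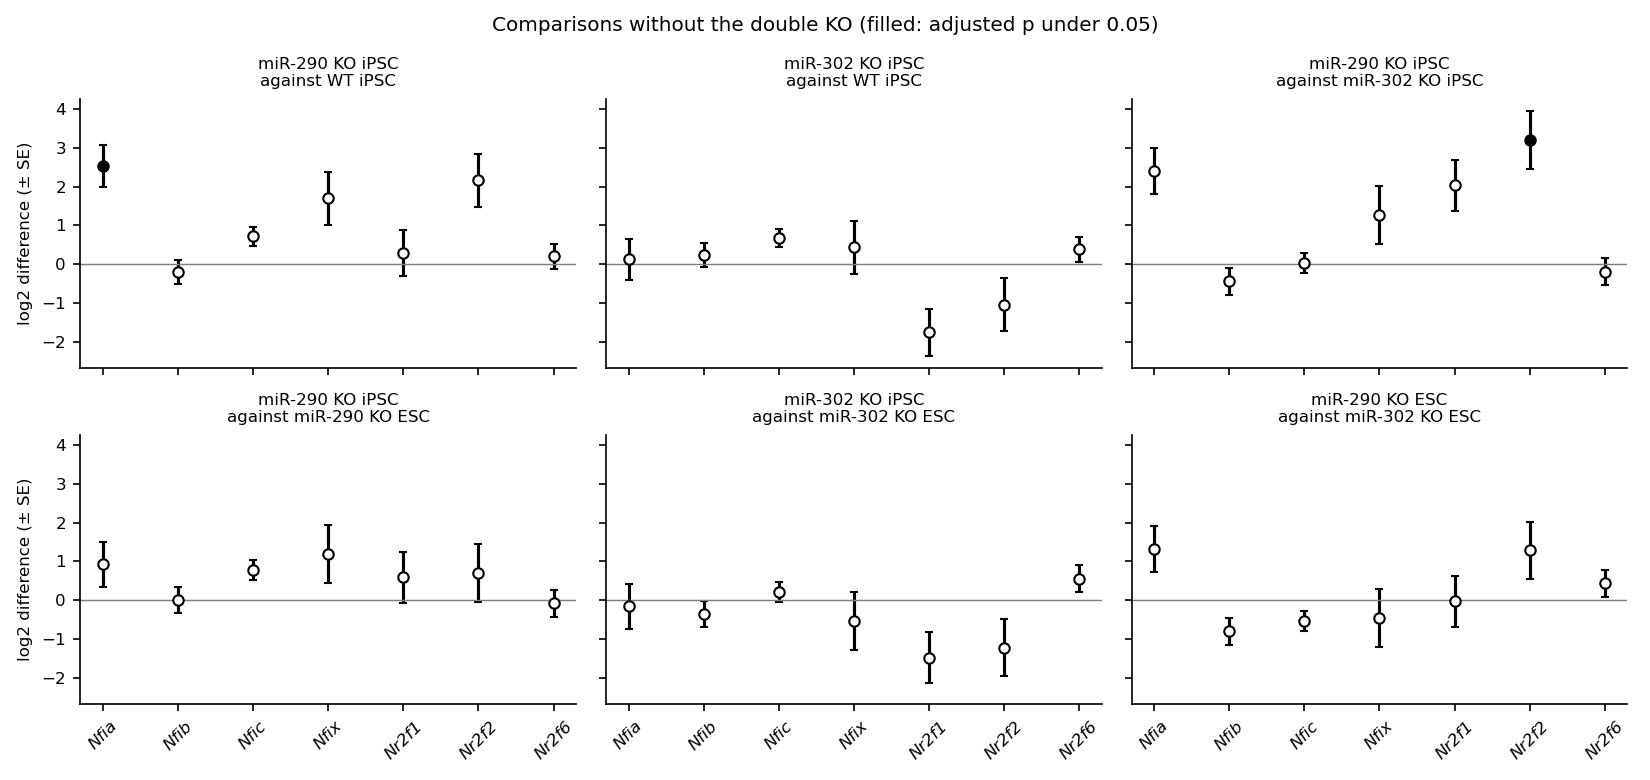
Log2 difference of each gene (y axis, ± SE of the fit over 13 samples) in the 6 comparisons that leave the double KO out; filled points had an adjusted p under 0.05. The filled points are Nfia in miR-290 KO against WT iPSC (2.53) and Nr2f2 in miR-290 KO against miR-302 KO iPSC (3.20), and Nr2f1 and Nr2f2 lie below 0 in both comparisons led by the miR-302 KO iPSC.

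Between iPSC and ESC of 1 genotype no member was called by limma, and 0% of all genes were called in either comparison, with an unadjusted p under 0.05 in 3.85% (miR-290 KO) and 10.5% (miR-302 KO) of them. In the miR-290 KO 1 of 7 had an unadjusted p under 0.05, Nfic, at 0.79 (SE 0.26, adjusted p = 0.999) higher in iPSC, with 41.6 and 59.6 CPM in the colonies and 26.5 and 31.1 CPM in the ESC libraries. In the miR-302 KO it was Nr2f1, at -1.47 (SE 0.66, adjusted p = 0.463), lower in iPSC. Nr2f2 had 0.70 (SE 0.74) with the miR-290 KO but -1.21 (SE 0.74) with the miR-302 KO, and Nfia 0.93 (SE 0.58) and -0.15 (SE 0.58). Without the library that stood apart the miR-302 KO values were -0.53 for Nr2f2 and -1.13 for Nfia.

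Over the 13 samples Nr2f2 and Nfia varied together, with a Pearson correlation of the log2 values of 0.973, which was 0.906 over the 11 samples without the double KO. The correlation is a description, since the samples share genotypes and the double KO lies apart. Both genes were proposed for their level in the double KO, so a high value over the 13 samples follows in part from that choice. How many other genes reach such a value was not counted. Nfix followed Nr2f2 with 0.924 (0.671 without the double KO) and Nr2f1 with 0.874 (0.502). Nfib had 0.766 with the double KO samples and -0.520 without them. The 5 genes most like Nr2f2 in this measure, the 7 members left out, were Phlda1 (0.986), Cish, a feedback inhibitor of cytokine signalling (0.983), Dnajc3, a chaperone partner of the endoplasmic reticulum (0.982), Efnb1, an ephrin ligand (0.978), and Fam102b (0.978). The 5 most like Nfia were Arhgdib (0.990), Col4a1, a basement membrane collagen (0.985), Ergic1 (0.982), Prkcdbp (0.981) and Tox3 (0.981). Phlda1 had 101 ± 5.69 CPM in the double KO, 16.0 ± 3.36 CPM in the miR-290 KO iPSC and 3.96 ± 1.72 CPM in the miR-302 KO iPSC (SD, n = 2 each), beside 6.41 ± 0.679 CPM in WT (SD, n = 3). Arhgdib had 234 ± 0.714, 14.4 ± 4.02 and 6.84 ± 1.73 CPM in these KO groups and 2.79 ± 0.433 CPM in WT.

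**Figure D5:**
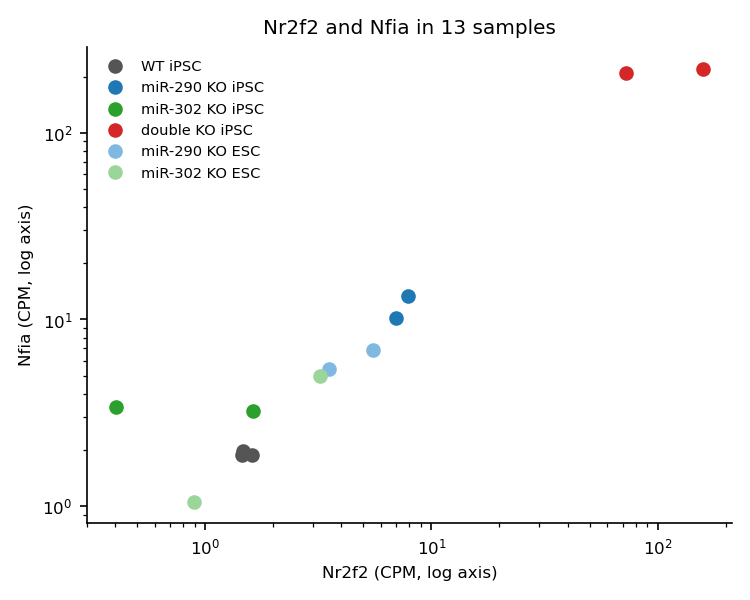
CPM of Nfia (y axis, log scale) against CPM of Nr2f2 (x axis, log scale) in 13 samples, coloured by group; a point is a colony mean or a WT or ESC library. The double KO colonies lie at the top right with 72.2 and 158 CPM of Nr2f2, the miR-290 KO samples follow, and colony 1 of the miR-302 KO iPSC (0.404 CPM of Nr2f2, 3.39 CPM of Nfia) lies off the line of the others.

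Of 45 other nuclear receptors listed, 23 had a row in the matrix, and in the double KO against WT 7 rose and 5 fell (7 and 6 after median-of-ratios scaling). Their median was 0.28, beside 0.16 over all genes, of which 27.4% rose and 21.5% fell, so the counts were near the shares of all genes. Rora, an orphan receptor of circadian and immune control, had 18.7 ± 2.85 against 1.62 ± 0.523 CPM (SD, n = 2 and 3), a rise of 3.42 (SE 0.60, limma adjusted p = 0.000504), and Thra, a thyroid hormone receptor, rose by 2.23 (SE 0.37, adjusted p = 0.000328). Esrrb, a receptor that maintains naive pluripotency, had 0.538 ± 0.0652 against 318 ± 48.8 CPM and fell by 8.94 on the log2 scale (SE 0.22, adjusted p = 7.26e-11). Nr5a2, which can replace Oct4 in reprogramming, fell by 6.24 (SE 0.25, adjusted p = 1.44e-09). Nr5a2 was also lower in the miR-290 KO than in the miR-302 KO, at -1.88 in iPSC (SE 0.28, adjusted p = 0.00882) and -2.15 in ESC (SE 0.28, adjusted p = 0.00581), opposite in sign to Nr2f2. Nr6a1, a receptor of germ cells and early embryos, was the 1 receptor called in the miR-290 KO against WT, at -1.37 (SE 0.22, adjusted p = 0.0110).

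Corepressor partners of the COUP-TF receptors were all in the matrix (10 of 10). In the double KO against WT 4 rose and 3 fell (median 0.47, beside 0.16, 27.4% and 21.5% over all genes). Bcl11b, a zinc finger partner also known as CTIP2, rose by 3.86 (SE 0.64, limma adjusted p = 0.000327), from 0.557 ± 0.250 CPM in WT (SD, n = 3) to 9.73 ± 3.71 CPM (SD, n = 2). Zfpm2, the partner FOG2, had 0.110 ± 0.00574 against 2.27 ± 0.999 CPM and fell by 3.32 on the log2 scale (SE 0.49, adjusted p = 0.000140). The deacetylases differed in direction, with Hdac2 higher by 1.31 (SE 0.21, adjusted p = 0.000243) and Hdac1 at -1.51 (SE 0.20, adjusted p = 6.59e-05). After median-of-ratios scaling 3 rose and 3 fell.

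Of 12 genes reported downstream of nuclear factor I proteins, 6 had a row in the matrix, and in the double KO against WT 3 rose and 2 fell (median 0.31, beside 0.16, 27.4% and 21.5% over all genes). Sox9, a regulator of glial and cartilage fate, rose by 2.90 (SE 0.78, limma adjusted p = 0.00857) from 0.510 to 4.55 CPM, and Hes1, a Notch target, rose by 1.07 (SE 0.40, adjusted p = 0.0427). The astrocyte genes fell: Slc1a3, a glutamate transporter, had 3 reads over the double KO libraries and 684 over those of WT (adjusted p = 1.94e-06), and Aldh1l1 had 0.124 against 2.42 CPM (adjusted p = 0.00102). Of 10 genes reported downstream of COUP-TF receptors, 7 had a row, and 4 rose and 2 fell (median 1.27, beside the same values over all genes). Kdr, a VEGF receptor, had 801 reads in the double KO and 3 in WT (adjusted p = 0.000605), and Foxc1 rose by 4.84 (SE 1.13, adjusted p = 0.00369). Foxc1 had 1.63 and 31.2 CPM in the 2 double KO colonies. Pou5f1, the gene of Oct4, had 24.6 ± 3.12 against 653 ± 128 CPM and fell by 4.69 on the log2 scale (SE 0.33, adjusted p = 2.43e-07). Pax6, a neural and eye regulator, had 3 reads in the double KO and 43 in WT (adjusted p = 0.00514). Pax6 was also higher in the miR-290 KO than in the miR-302 KO iPSC by 4.06 (SE 0.66, adjusted p = 0.0142).

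Markers of other cell types moved with the double KO in part. All 10 pluripotent markers fell against WT (median -7.44). Of 8 neural progenitor markers 4 had a row. Sox1 rose by 4.59 (SE 0.41, limma adjusted p = 2.14e-06) and Nes by 2.81 (SE 0.34, adjusted p = 2.86e-05), while Olig2 and Pax6 fell, and the summed level was 119 and 128 CPM in the double KO, between 29.1 and 42.2 CPM in WT and between 127 and 157 CPM in the miR-290 KO iPSC. It was between 64.5 and 71.6 CPM in the miR-302 KO iPSC, between 77.4 and 99.9 CPM in the miR-290 KO ESC and between 119 and 129 CPM in the miR-302 KO ESC. In the miR-290 KO iPSC against WT, Sox1 and Nes also rose, by 3.23 (limma adjusted p = 0.00499) and 1.58 (adjusted p = 0.0398). Of 12 fibroblast markers 4 had a row, summing to between 3.51 and 8.15 CPM in the double KO and between 6.81 and 8.25 CPM in WT, and Thy1 and Pdgfrb fell. Of 6 primitive endoderm markers 2 had a row, Gata4 with 0 reads in the double KO and Dab2, which fell. Of 6 endothelial markers 4 had a row: Kdr and Tek rose, Pecam1 and Tie1 fell, Tie1 had 0 reads in the double KO, and the sum was 24.1 and 34.7 CPM there against 88.8 to 119 CPM in WT. The part of these markers in the levels of the 7 genes was not tested.

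The promoters (RefSeq, GRCm38.p6, from 250 bases before to 50 after the start) were searched on both strands for parts of 2 motifs. These were TTGGCA, part of the nuclear factor I motif, and AGGTCA, part of the COUP-TF receptor motif. The full motifs were not searched. There were 10 promoters for 6 of the 7 genes. TTGGCA was in 0 of the 10, beside 14.1% of all 32851 promoters, and AGGTCA in 2, both of Nfix, beside 16.3%. In GENCODE vM21 (GRCm38) the genes lie at chr4:97772734-98118874 (Nfia, plus strand), chr4:82290173-82705750 (Nfib, minus), chr10:81396186-81455635 (Nfic, minus), chr8:84699876-84800344 (Nfix, minus), chr13:78188973-78199757 (Nr2f1, minus), chr7:70351944-70366735 (Nr2f2, minus) and chr8:71374123-71381960 (Nr2f6, minus). Each is overlapped by another annotated gene, of which Ocel1, on the strand opposite to Nr2f6, is in the matrix. Whether the counting used strand, and how reads shared by paralogs were treated, is not given in the sources used here.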

How the data were processed

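The authors' deposited matrix holds log2 values per gene and library. They are log2 CPM with a prior, shifted by a constant per gene, as read from the values: 1 constant per gene gave reads for 12238 of 12778 genes (95.8%), and 99.6% of those values lay no more than 0.02 from a whole number. Their sum was the library total, and 540 genes, among them very abundant ones, are not in it. The matrix has 6 further columns, not used here. Per the file headers, the authors' deposited comparison tables give log2 fold changes and their standard errors, raw and adjusted p-values, a mean normalized signal over libraries and the score of the test. The submitters' processing notes name Trim Galore 0.66, STAR, Salmon 1.4.0, limma, DESeq2 1.34.0 and the build mm10, with no role for each. Per the labels' protocols, 200 ng of RNA entered each library and reads were 50 bases, single end.

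Differences were tested with limma 3.58.1 (R 4.3.3) on the deposited log2 values of every gene, in 1 fit of 13 samples and 6 groups with 7 residual degrees of freedom and a trend of the variance. A log2 difference of CPM with a prior understates the change of low genes. P-values were adjusted by Benjamini-Hochberg over 12778 genes in each comparison, with calls under 0.05. A count test was not run, since the values are not counts. The fit was tested on simulated data. CPM use recovered reads, and limits from counts cover counting error only, since no molecular identifiers mark PCR copies. The 7 genes and the gene lists were chosen with earlier results of these data known. All members are named. From each list, the 2 largest called rises and falls are named, and beside Nr2f2 and Nfia the 5 genes of highest Pearson correlation over samples. Alternatives were each library as a sample, median-of-ratios scaling, estimated sample weights, leaving out the lowest 25% of genes by mean value, fitting only the groups compared, log2(CPM + 1) of recovered reads, a replicate block, and leaving out each sample. The deposited values carry a shift per gene, so the filter by mean value does not strictly order genes by abundance. The trend of the variance rests on the same means. Taking colony 1 of the miR-302 KO iPSC from library 1 alone was added after the data were seen.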

Additional observations from a re-analysis of the deposited data

Results flagged for a closer look

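Within each KO iPSC group, the highest and the lowest of the 4 libraries were compared with the others for each of the 7 genes. Of these 21 groups of 4 libraries, 1 held a library far from the rest: Nr2f6 in the miR-302 KO iPSC, with 26.9 CPM in colony 1 library 2 and 11.1 to 13.7 CPM in the other 3, a gap of 0.839 of the range and above the 95% critical value of Dixon's ratio. By chance about 1 group in 20 passes this limit if the 4 values are independent. Libraries of the same colony are not, so the rate is only a guide here. The library is the one with the lowest correlation with its group, and its Nfia and Nfix levels differ from those of its colony's other library by a factor of 22.5 and 4.31.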

How the results depend on the processing

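Over 21 alternatives, the 21 log2 differences of members in the double KO kept their sign, and of the 42 in the other comparisons 28 kept theirs in every alternative and 14 turned in at least 1. In miR-290 KO against WT iPSC the count of called members was 1, and 0 without the lowest 25% of genes (which removes Nfia, Nr2f1 and Nr2f2), 2 (Nfia and Nr2f2) with log2(CPM + 1), 0 with colony 1 of the miR-302 KO from library 1 alone, and between 0 and 1 when 1 sample was left out. In miR-290 KO against miR-302 KO iPSC the count was 1, and 3 with each library as a sample (Nfia, Nr2f1 and Nr2f2). It was 0 with median-of-ratios scaling, with estimated weights, without the lowest 25% of genes and with only the groups compared. It was 2 with log2(CPM + 1) and with library 1 alone, and between 0 and 2 when 1 sample was left out. In miR-290 KO against miR-302 KO ESC it was between 0 and 1. Apart from the removal of genes by the filter, the cause was not tested.

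Replicate numbers are shared between groups, but colonies were derived independently, and the main fit did not pair samples. Same-numbered samples had correlations of their deviations from -0.27 to 0.10. In a group of 2 samples the deviations mirror each other, so these values cannot decide whether the numbers mark a shared batch. With a replicate block the count of called members was 0 in miR-290 KO against WT and 0 in miR-290 KO against miR-302 KO iPSC, and 0 in the other 4 comparisons.

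The differences that turned were small or rested on 1 sample. Leaving out 1 sample, where a lone sample is assumed to vary like the other groups, gave, in miR-290 KO against WT iPSC, -0.13 to 0.53 for Nr2f6. In miR-302 KO against WT it gave -0.28 to 0.54 for Nfia, -0.55 to 1.43 for Nfix and -2.16 to 0.0895 for Nr2f2. In miR-290 KO against miR-302 KO iPSC it gave -0.22 to 0.29 for Nfic and -0.52 to 0.15 for Nr2f6. Between iPSC and ESC it gave, in the miR-290 KO, -0.43 to 0.45 for Nfib, -0.36 to 1.54 for Nr2f1 and -0.41 to 0.26 for Nr2f6, and, in the miR-302 KO, -1.20 to 0.90 for Nfia, -0.74 to 0.0398 for Nfib and -1.69 to 0.64 for Nfix. Between the ESC genotypes it gave -1.61 to 0.71 for Nfix and -0.98 to 0.93 for Nr2f1. Median-of-ratios scaling gave -0.17 for Nfic between the KO iPSC and -0.0023 for Nfib between miR-290 KO iPSC and ESC, log2(CPM + 1) gave 0.0570 for Nr2f1 between the ESC, and library 1 alone gave -0.85 for Nfia in miR-302 KO against WT and 0.10 for Nr2f6 between the KO iPSC. Depth limits Nr2f1, with 12 reads in the miR-302 KO iPSC.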
